A study of Mus musculus with 6 samples.

Results

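Genomic imprinting leaves a gene active mainly from the copy inherited from the mother or mainly from that inherited from the father. The 9 genes described here are imprinted genes of the mouse that are known for their part in fetal and placental growth: the noncoding RNA genes H19, Meg3 and Rian, and the protein-coding genes Dlk1, Grb10, Plagl1, Ndn, Peg3 and Mest. They were taken from the deposited count table by gene symbol, and all 9 were present among its 23420 genes. The list was chosen with earlier results of these data known. The libraries came from mouse embryonic fibroblasts of mixed 129/Sv-C57BL/6 strain that carry the adenoviral oncogene E1A and the activated Ras gene HrasG12V, in both groups. Cells of 3 lines received either a guide RNA against the p53 gene, labelled sgp53(1) and called sgp53 here, or a non-targeting guide, sgNTC, and each line gave 1 library of each kind. Among the sgp53 cells, the genotype label reads p53 null for lines 1 and 3 and functionally inactive for line 2, and for all sgNTC cells it reads p53 wild-type. All cells were kept at 5% oxygen and had a recovery of 24 h before harvest. Neither the embryo behind a line nor whether a line was a clone or a pool is stated. The library descriptions of lines 2 and 3 share a source number that those of line 1 do not carry, and what that number stands for is not stated.

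In the mouse, H19, Meg3, Rian and Grb10 are expressed mainly from the maternal copy and Dlk1, Plagl1, Ndn, Peg3 and Mest mainly from the paternal copy, and Grb10 switches to the paternal copy in neurons. Imprinted genes lie in domains that share a control region marked by DNA methylation, so neighbours often respond together: H19 shares enhancers with Igf2 on distal chromosome 7, and Dlk1, Meg3, Rian and the microRNA host gene Mirg share a domain on chromosome 12. Many of these genes are highly active in the embryo and are turned down after birth. The read counts do not separate the parental copies, so whether a change in level came from the active or the silent copy was not measured.

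The libraries held between 27503577 and 35860866 counts. The label check passed in direction: Trp53, the targeted gene, was at 71.1, 72.0 and 113 CPM (read counts scaled to the normalised library total) in sgp53 lines 1, 2 and 3, against 206, 277 and 253 CPM in sgNTC, and Cdkn1a, its best-known target, fell to 84.2, 101 and 73.8 CPM in sgp53, against 647, 711 and 732 CPM in sgNTC. Of 9 fibroblast markers, Vim was at 2502 to 3001 CPM in sgp53 and 2754 to 3354 CPM in sgNTC, whereas Col1a1 was at 221 to 744 CPM in sgp53 and only 5.18 to 12.6 CPM in sgNTC. Col1a1, Col1a2 and Col3a1 were called higher and no fibroblast marker lower, where 2.76% of all genes tested were called higher and 3.69% lower. The list's summed level was 6978 to 9791 CPM in sgp53 and 5541 to 6617 CPM in sgNTC. Most of that sum was Vim and Fn1, neither of them called. Fn1 was at 3887 to 4418 CPM in sgp53 and 2220 to 3416 CPM in sgNTC. Of 6 epithelial markers, Krt18 was called lower, and the summed level was 116 to 165 CPM in sgp53 and 294 to 689 CPM in sgNTC. Most of that sum in sgNTC was Krt18, at 185 to 542 CPM. Of the 5 tested, 4 log2 fold changes were negative, and that of Cdh1 was 0.10. The summed leukocyte, endothelial, myogenic and germ cell markers stayed under 11 CPM in every library. Cd68, a macrophage marker, was the only gene of these lists called, at 3.51 to 3.92 CPM in sgp53 and 7.42 to 10.4 CPM in sgNTC, with Cd3e, Pax7 and the neuronal marker Rbfox3 at 0 counts and most of the neural sum in Nes. Sox2 reached 6.81 CPM in sgp53 line 3 and was at or under 0.584 CPM in the other 5 libraries. The sgp53 library of line 3 also held 3338 CPM of the ribosomal RNA precursor Rn45s, against 636 to 864 CPM in the other 5 libraries. In bulk RNA, a gene that is on in fewer cells and one with less RNA per cell cannot be told apart.

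H19, Meg3 and Rian are also hosts of microRNAs, and some of their hosted sequences are shown because these host RNAs are the members that were called higher. Each is a mature sequence from RefSeq on GRCm38.p6, with the seed, bases 2 to 8, in capitals. H19 holds miR-675, Meg3 holds miR-770 and miR-1906, and Rian holds miR-370, miR-341 and miR-1188. Shown are miR-675, miR-770 and miR-370.
miR-675-5p: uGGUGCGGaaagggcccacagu
miR-675-3p: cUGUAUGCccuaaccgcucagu
miR-770-5p: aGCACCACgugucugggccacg
miR-770-3p: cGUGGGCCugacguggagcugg
miR-370-5p: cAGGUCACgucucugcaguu
miR-370-3p: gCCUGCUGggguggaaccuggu
No seed among these was shared by another microRNA listed inside H19, Meg3, Rian, Mest, Mirg or Igf2. The count table has rows for the 3 microRNA genes of the sequences shown, Mir675, Mir770 and Mir370, and each was listed at 0 counts in all 6 libraries. In the shallowest library a count of 0 allows up to 0.109 CPM of reads given to the row (3 counts, counting error only), and the level of the mature microRNA was not measured.

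The promoter windows of the chromosome 12 members are shown because Meg3, Rian and Dlk1 were each higher in sgp53 in every line. Each window runs from 250 bases before to 50 bases after a transcript start, as the RefSeq table gives it, read along the plus strand of GRCm38.p6, and capitals mark CG, the dinucleotide whose methylation carries imprints. Their positions are chr12:109452573-109452872 for Dlk1, chr12:109540746-109541045 for Meg3 and chr12:109603695-109603994 for Rian. The Meg3 and Rian windows flank the start of the gene, and the Dlk1 window flanks a transcript start at 109452823, which lies 338 bases inside the RefSeq span of that gene.
Dlk1: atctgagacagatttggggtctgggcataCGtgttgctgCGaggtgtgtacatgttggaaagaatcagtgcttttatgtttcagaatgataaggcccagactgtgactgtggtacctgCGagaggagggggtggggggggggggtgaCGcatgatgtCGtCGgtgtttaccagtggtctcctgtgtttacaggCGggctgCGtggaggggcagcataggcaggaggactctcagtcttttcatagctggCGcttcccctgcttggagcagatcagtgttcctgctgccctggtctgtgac
Meg3: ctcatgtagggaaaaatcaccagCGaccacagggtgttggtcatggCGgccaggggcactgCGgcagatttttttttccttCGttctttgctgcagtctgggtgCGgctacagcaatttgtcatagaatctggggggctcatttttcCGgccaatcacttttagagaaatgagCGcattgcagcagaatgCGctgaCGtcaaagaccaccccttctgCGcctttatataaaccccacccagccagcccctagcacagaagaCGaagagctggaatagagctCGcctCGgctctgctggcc
Rian: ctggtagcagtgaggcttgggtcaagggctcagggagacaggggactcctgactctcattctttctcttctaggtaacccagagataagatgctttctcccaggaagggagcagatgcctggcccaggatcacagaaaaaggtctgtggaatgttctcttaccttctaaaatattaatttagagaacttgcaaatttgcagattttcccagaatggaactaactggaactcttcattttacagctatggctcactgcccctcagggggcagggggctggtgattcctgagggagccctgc
The windows held 9 CG in Dlk1, 13 in Meg3 and 0 in Rian, against a median of 7 over the 32841 promoter windows of that length. Windows were found for 8 of the 9 members, and H19 had none. A search of both strands for the p53 consensus decamer found no match in the 12 windows of these 8 members, while 8.36% of all windows held a match. The motif of the Plagl1 protein, GGGGCCCC, matched only the Peg3 window (1.08% of all windows held it). A motif match is a description of these letters and no evidence of binding.

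Of the 9 members, 3 were called higher in sgp53 and 0 lower by edgeR's quasi-likelihood test at an adjusted p under 0.05. Over all 13044 genes tested, 6.45% were called, 2.76% higher and 3.69% lower. H19, Meg3 and Rian were the called genes, all of them noncoding RNAs of maternal expression, and Meg3 and Rian are neighbours in a shared domain. That shared trait depends on the threshold. Dlk1, a protein-coding gene of paternal expression, was also higher in every line and narrowly missed it (log2 fold change 2.71, edgeR adjusted p = 0.0609). Grb10, also of maternal expression, was not called (0.35). By sign, 8 log2 fold changes (sgp53 over sgNTC) were positive and that of Ndn was negative, with a median of 0.48 over the members and -0.01 over all genes tested. The groups did not overlap in 5 members, each of them higher in sgp53, and in 17.8% of all genes tested in that direction. All 9 passed the filter on low counts. DESeq2 called 4 members higher, and 9.16% of all genes, and limma-voom called Rian alone. Under a model with a term for the line, 2 members, Meg3 and Rian, and 2.38% of all genes were called. The calls rested on few libraries: no member was called without sgp53 line 1, sgNTC line 3, line 1 or line 3, and Rian alone was called without sgp53 line 3, sgNTC line 2 or line 2. In lines 2 and 3 alone, which share the source number, the log2 fold changes were 5.81 for H19, 4.07 for Meg3 and 3.81 for Rian, and the edgeR adjusted p values 0.132, 0.0956 and 0.0873. Over all genes the count of 841 calls also fell without single libraries, to 135 without sgNTC line 3 and to 141 without sgp53 line 1.

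**Figure D1:**
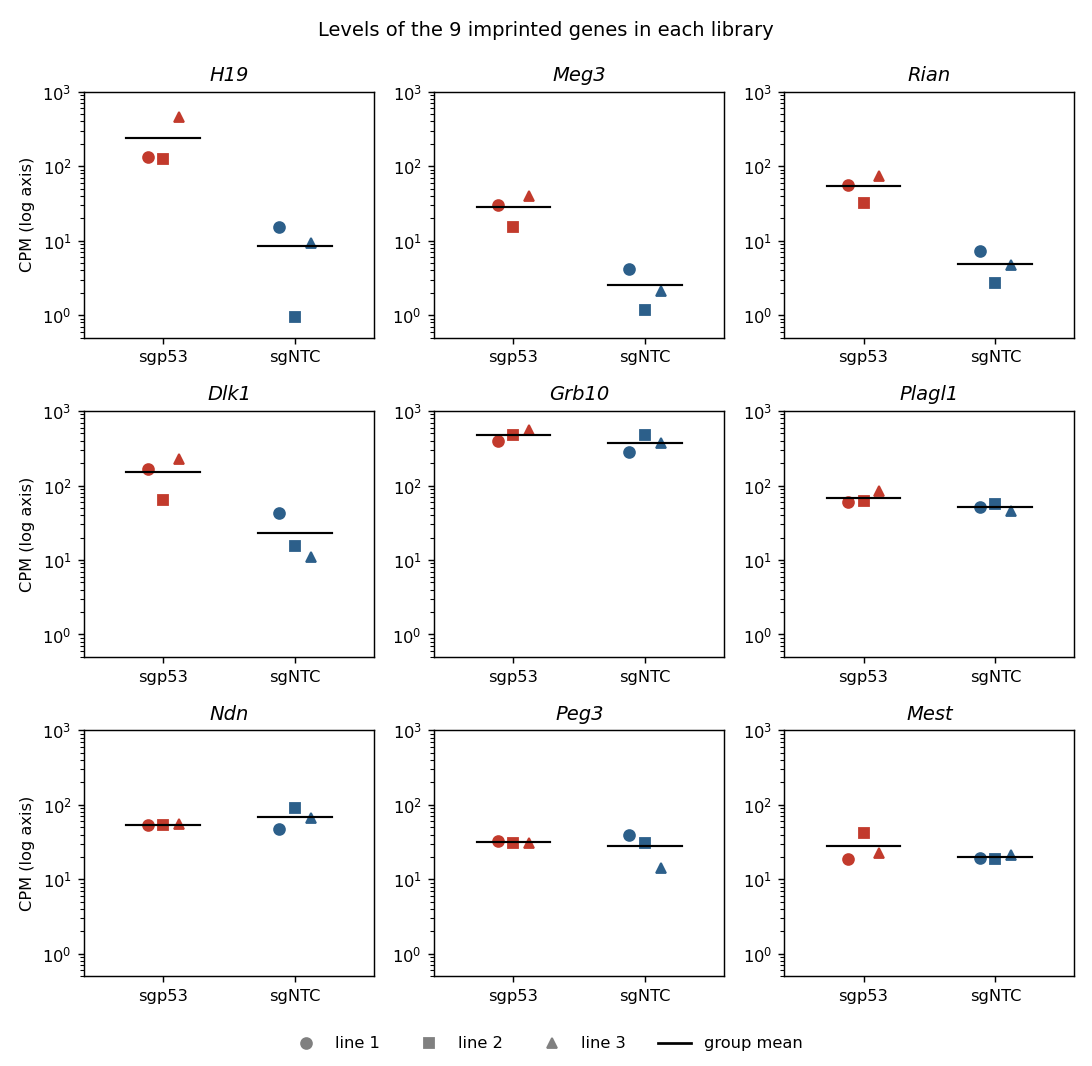
Level of each of the 9 imprinted genes in every library, in CPM on a log axis, with sgp53 left and sgNTC right; the marker shape gives the line and the bar the group mean. The sgp53 points of H19, Meg3, Rian and Dlk1 all lie above every sgNTC point, and those of Plagl1 do so by a small step, while Grb10, Ndn, Peg3 and Mest overlap.

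**Figure D2:**
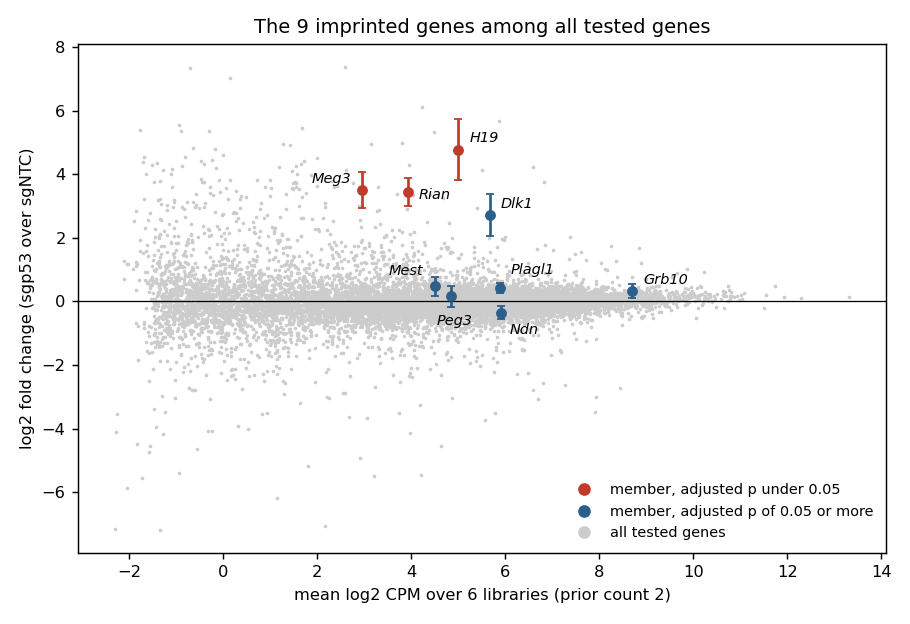
Log2 fold change of sgp53 over sgNTC against mean log2 CPM over 6 libraries for all tested genes (grey) and for the 9 imprinted genes (red where the adjusted p was under 0.05, blue otherwise), with bars for the SE of the fit. H19, Meg3, Rian and Dlk1 lie between 2.71 and 4.78, and the other 5 between -0.35 and 0.48.

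H19 (chromosome 7, 142575530 to 142578146, minus strand) encodes a noncoding RNA that restrains growth in the mouse embryo. It rose to 131, 125 and 456 CPM in sgp53 lines 1, 2 and 3, against 15.4, 0.942 and 9.31 CPM in sgNTC. Every sgp53 library was above every sgNTC library, line 3 was the highest of the sgp53 libraries, and line 2 was by far the lowest of the sgNTC libraries, with 26 reads. The group means were 237 ± 189 CPM in sgp53 and 8.54 ± 7.24 CPM in sgNTC (SD, n = 3 each). The fit put the log2 fold change at 4.78, with an SE of 0.97 and an edgeR adjusted p of 0.0421. Within a line, the sgp53 level was 8.56 times the sgNTC level in line 1, 133 times in line 2 and 48.9 times in line 3. The direction was the same in every line, but the call was lost with the line as a block (edgeR adjusted p = 0.0633) and without any 1 library (0.0551 to 0.145; 0.000279 to 0.232 over all 15 alternatives). Without sgp53 line 3, the library with the high Rn45s and collagen levels, the log2 fold change was 3.90 (adjusted p = 0.0818).

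Meg3 (chromosome 12, 109540996 to 109571729, plus strand), also known as Gtl2, is a noncoding RNA whose human counterpart has been described as a growth suppressor. It rose to 30.4, 15.3 and 40.4 CPM in sgp53 lines 1, 2 and 3, against 4.21, 1.16 and 2.13 CPM in sgNTC. The groups were far apart, and line 2 was the lowest library in each of them. The means were 28.7 ± 12.6 CPM in sgp53 and 2.50 ± 1.56 CPM in sgNTC (SD, n = 3 each). The fit put the log2 fold change at 3.51, with an SE of 0.56 and an edgeR adjusted p of 0.024. The Meg3 call was lost without sgp53 line 1 (0.0802), sgp53 line 3 (0.0568), sgNTC line 2 (0.0514) or sgNTC line 3 (0.099), and without any whole line (0.0592 to 0.186; 1.08e-10 to 0.186 over all 15 alternatives).

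Rian (chromosome 12, 109603945 to 109661716, plus strand) lies 32.2 kb beyond Meg3 and is a noncoding RNA that hosts small nucleolar RNAs as well as microRNAs. It rose to 55.5, 31.5 and 73.2 CPM in sgp53 lines 1, 2 and 3, against 7.24, 2.68 and 4.74 CPM in sgNTC. The order of the libraries was the same as for Meg3 in both groups. The means were 53.4 ± 20.9 CPM in sgp53 and 4.89 ± 2.28 CPM in sgNTC (SD, n = 3 each), and the log2 fold change was 3.44 (SE 0.45, edgeR adjusted p = 0.0147). Within lines 1, 2 and 3 the sgp53 level of Rian was 7.66, 11.8 and 15.4 times the sgNTC level, and that of Meg3 was 7.22, 13.2 and 18.9 times. The Rian call held in 11 of 15 alternatives, the block and the omission of sgp53 line 3 (edgeR adjusted p = 0.0368) among them. It was lost without sgp53 line 1 (0.0584), sgNTC line 3 (0.0734), line 1 (0.0873) or line 3 (0.146), over a range of 7.26e-16 to 0.146. Rtl1, a gene on the other strand across Meg3 and Rian, had at most 7 counts in any library.

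Dlk1 (chromosome 12, 109452485 to 109463336, plus strand) encodes a membrane protein, also known as preadipocyte factor, that holds back the differentiation of fat cell precursors. It had 167, 64.3 and 227 CPM in sgp53 lines 1, 2 and 3, against 43.1, 15.5 and 11.0 CPM in sgNTC. The groups did not overlap, and the nearest libraries of either group were sgp53 line 2 and sgNTC line 1. The means were 153 ± 82.2 CPM in sgp53 and 23.2 ± 17.4 CPM in sgNTC (SD, n = 3 each), with a log2 fold change of 2.71 (SE 0.66, 95% interval 1.13 to 4.30). Dlk1 missed the threshold (edgeR adjusted p = 0.0609), passed it in DESeq2 (0.0047) and in edgeR without sgNTC line 1 (0.0386), and ranged from 0.0047 to 0.282 over 15 alternatives. Its sgp53 level was 3.88 times the sgNTC level in line 1, 4.15 times in line 2 and 20.6 times in line 3.

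Grb10 (chromosome 11, 11930499 to 12037428, minus strand) encodes an adaptor protein that dampens signalling from the insulin and insulin-like growth factor receptors. It was at 392, 475 and 562 CPM in sgp53 lines 1, 2 and 3, against 280, 483 and 371 CPM in sgNTC. The groups overlapped through line 2, whose libraries were close to each other. The log2 fold change was 0.33 (SE 0.22, 95% interval -0.19 to 0.85, edgeR adjusted p = 0.35).

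Among the genes of paternal expression, Plagl1 (chromosome 10, 13090832 to 13131694), also known as Zac1, encodes a zinc finger transcription factor that can arrest the cell cycle and is known to regulate other imprinted genes in the mouse. It was at 59.9, 62.3 and 84.8 CPM in sgp53 lines 1, 2 and 3, against 52.1, 56.6 and 46.0 CPM in sgNTC. The groups did not overlap, by a margin that was small beside the spread within sgp53. The log2 fold change was 0.42 (SE 0.15, 95% interval 0.06 to 0.79), and the gene missed the threshold (edgeR adjusted p = 0.131).

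Ndn (chromosome 7, 62348277 to 62349928) encodes necdin, a protein of the MAGE family that restrains proliferation and lies in the domain affected in Prader-Willi syndrome. It was at 52.95, 53.4 and 54.9 CPM in sgp53 lines 1, 2 and 3, against 47.5, 90.8 and 67.3 CPM in sgNTC. The sgp53 libraries were nearly equal, and the sgNTC libraries lay on either side of them. The log2 fold change was -0.35 (SE 0.22, 95% interval -0.87 to 0.17, edgeR adjusted p = 0.33).

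Peg3 (chromosome 7, 6703892 to 6730462) encodes a large zinc finger protein, also called Pw1, that has been linked to maternal behaviour and to p53-dependent cell death in the mouse. It was at 32.7, 30.8 and 31.0 CPM in sgp53 lines 1, 2 and 3, against 39.4, 30.5 and 14.4 CPM in sgNTC. As with Ndn, the spread lay among the sgNTC libraries, with line 3 low. The log2 fold change of Peg3 was 0.16 (SE 0.33, 95% interval -0.63 to 0.96, edgeR adjusted p = 0.774), and its sign turned without sgNTC line 3 (-0.15).

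Mest (chromosome 6, 30733506 to 30748466), also called Peg1, encodes an enzyme-like protein of the endoplasmic reticulum that promotes growth. It was at 19.02, 41.7 and 22.3 CPM in sgp53 lines 1, 2 and 3, against 19.3, 18.9 and 21.6 CPM in sgNTC. Only sgp53 line 2, from the cells labelled functionally inactive, stood out. The log2 fold change was 0.48 (SE 0.29, 95% interval -0.23 to 1.18, edgeR adjusted p = 0.325). Mest overlaps Copg2, and because the strand setting of the counting is not given in the sources used here, reads of the overlap cannot be assigned; Copg2 itself was at 39.8 to 44.0 CPM in sgp53 and 44.6 to 50.5 CPM in sgNTC.

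**Figure D3:**
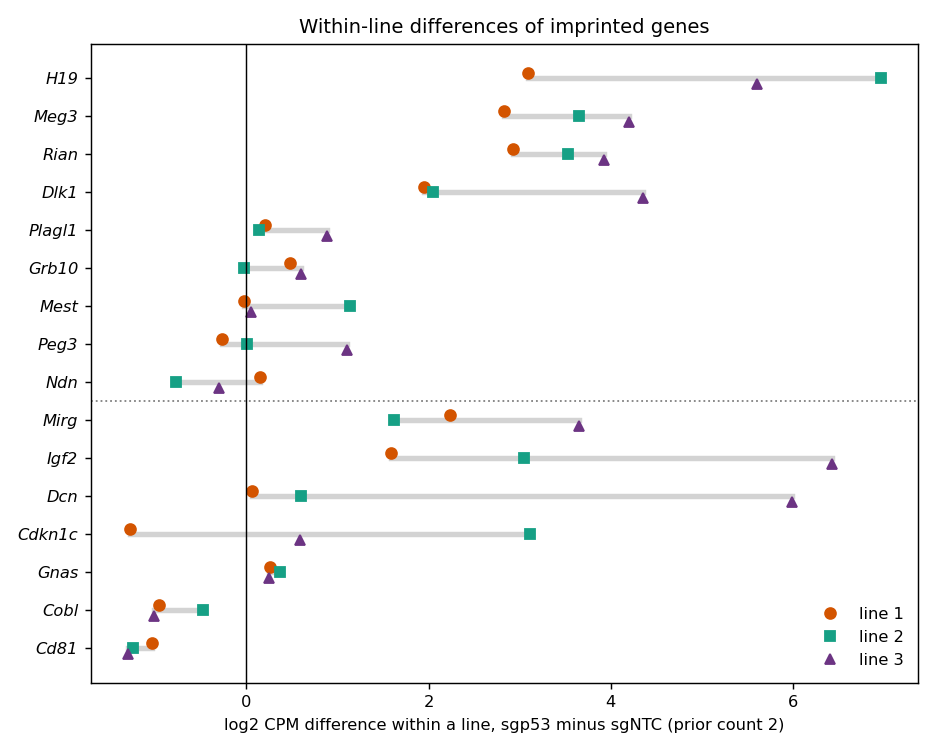
Difference in log2 CPM between the sgp53 and the sgNTC library of the same line (prior count of 2) for the 9 imprinted genes, above the dotted line, and for 7 other imprinted genes, below it; grey bars span the 3 lines. H19, Meg3, Rian and Dlk1 are to the right of 0 in every line, H19 between 3.09 and 6.96. Grb10, Mest, Peg3, Ndn and Cdkn1c have lines on either side.

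Set per length, as CPM per kb of annotated exon (RPKM), the order of the 9 genes differed between the groups. In sgp53, H19 was at the top with 96.5 ± 76.8 RPKM, followed by Grb10 with 52.4 ± 9.32, Dlk1 with 27.0 ± 14.5 and Ndn with 14.6 ± 0.274 RPKM (SD, n = 3 each). In sgNTC, Grb10 was at the top with 41.6 ± 11.1 RPKM, Ndn followed with 18.6 ± 5.87 RPKM, and H19 was in place 6 with 3.47 ± 2.94 RPKM. The middle places were held in sgp53 by Plagl1 (8.82 ± 1.75 RPKM) and Mest (7.01 ± 3.10 RPKM), and in sgNTC by Plagl1 (6.59 ± 0.681 RPKM), Mest (5.05 ± 0.367 RPKM) and Dlk1 (4.10 ± 3.07 RPKM). Rian, Peg3 and Meg3 were the lowest in both groups, with Meg3 last at 1.59 ± 0.698 RPKM in sgp53 and 0.138 ± 0.0861 RPKM in sgNTC. Neighbours in the order whose libraries overlapped were H19 and Grb10, Dlk1 and Ndn, Plagl1 and Mest, and Rian and Peg3 in sgp53, and Mest and Dlk1, Dlk1 and H19, H19 and Peg3, and Rian and Meg3 in sgNTC. Lengths are the union of GENCODE M21 exons, which includes long forms of Meg3 (18089 bases in all), so the place of a gene with uncertain isoforms is approximate.

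The lines were also compared with each other, with the group held fixed. EdgeR called 0 of the 9 members between lines (adjusted p of 0.968 or more) and 0 of all 13044 genes (0%), where 461 genes (3.53%) had an unadjusted p under 0.05; DESeq2 called 67 genes and no member, and limma-voom called 0. Meg3 and Rian were the members among those 461 genes, with line 2 the lowest library of each group for both. The fit has 2 residual degrees of freedom, so a miss does not show that the lines were alike. Within sgNTC the highest library was 16.3 times the lowest for H19, 3.92 times for Dlk1, 3.63 times for Meg3 and 2.70 times for Rian, and within sgp53 these spans were 3.64, 3.53, 2.64 and 2.32 times. Ndn and Peg3 spanned 1.04 and 1.06 times within sgp53 and 1.91 and 2.74 times within sgNTC.

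**Figure D4:**
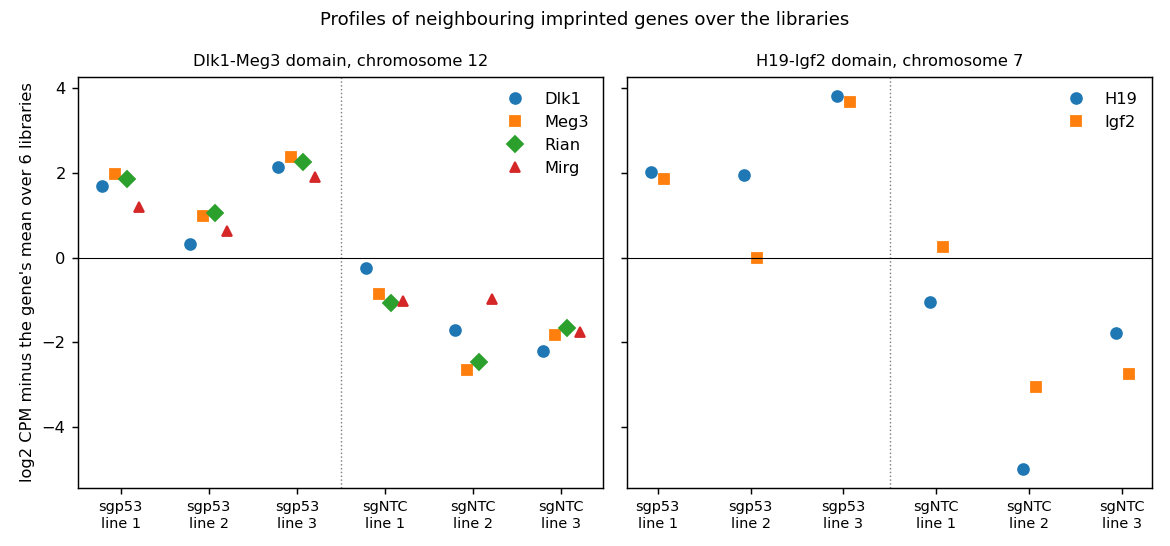
Log2 CPM of each gene minus its own mean over the 6 libraries, for genes of the chromosome 12 domain (left) and for H19 and Igf2 (right), with the sgp53 libraries left of the dotted line. Meg3 and Rian nearly coincide in every library, and H19 and Igf2 both peak in sgp53 line 3, at 3.83 and 3.68.

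The profile of Meg3 over the 6 libraries was closest to that of Rian among all tested genes, and that of Rian closest to that of Meg3. Likeness was the root mean square difference in log2 CPM after centring each gene on its mean, and it was 0.147 for this pair, against a median of 1.91 between Meg3 and all tested genes. The next gene was Adam12, a metalloprotease, for Meg3 (0.175) and the inhibitory Smad6 for Rian (0.251). Dlk1 was farther from both, at 0.574 from Meg3 and 0.590 from Rian. The nearest genes to Dlk1 were Sulf1, a heparan sulfatase (0.238), and 9930013L23Rik (0.304), and those nearest to H19 were Postn, periostin (0.591), and Crabp1, a retinoic acid binding protein (0.616). For the other members the nearest genes were Gnai1 (0.138) and Sdcbp2 (0.147) for Peg3, Dcdc2b (0.0669) and Loxl4 (0.109) for Grb10, Erap1 (0.104) and Rhou (0.151) for Mest, Sipa1l1 (0.0551) and Mcc (0.0618) for Plagl1, and Fam120aos (0.0585) and Hdac4 (0.0706) for Ndn. These distances are over 6 libraries of 3 lines and describe these libraries only, since close matches are easily found among many genes.

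Of 62 other imprinted genes, 61 were in the table, 5 had no count in any library and 44 could be tested. EdgeR called 2 higher, Mirg and Gnas, and 2 lower, Cd81 and Cobl, and the other 40 did not pass. Whether each of the 44 is expressed from a single parental copy in these cells was not measured. Over all genes tested, 6.45% were called, 2.76% higher and 3.69% lower. The median log2 fold change over the 44 was -0.05, and the groups did not overlap in 4 that were higher and 12 that were lower in sgp53, where 36.8% of all genes tested did not overlap in either direction and 17.8% were higher. With the line as a block 1 of the 44 was called, Cd81, against 2.38% of all genes tested. DESeq2 called 3 higher and 7 lower, against 1195 higher and 1172 lower of all 13044 genes tested. Per domain, the called genes were 1 of 8 tested in the H19-Igf2 and Kcnq1 domains, 1 of 2 in the Dlk1-Meg3 domain, 0 of 1 in the Peg3 domain, 0 of 5 in the Prader-Willi and Angelman domain, 0 of 8 around Peg10 and Mest, 0 of 2 in the Igf2r domain, 1 of 6 in the chromosome 2 domains and 1 of 12 elsewhere.

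Mirg, a host gene of many microRNAs, lies 73.3 kb beyond Rian in the chromosome 12 domain. It had 1.23, 0.806 and 2.04 CPM in sgp53 lines 1, 2 and 3, against 0.210, 0.217 and 0.102 CPM in sgNTC. The groups were apart, at 29 to 58 reads per sgp53 library and 3 to 7 per sgNTC library. Mirg, the called gene of the Dlk1-Meg3 domain list, passed the low-count filter only through its sgp53 libraries. At its sgNTC level it could be tested only by being higher in sgp53, so its direction adds little. Its log2 fold change was 2.91 (SE 0.50, edgeR adjusted p = 0.0284), and the call was lost with the line as a block (0.0812), without any whole line (0.0966 to 0.167) and when any library but sgp53 line 2 was omitted (0.0531 to 0.101). Gnas, which encodes a G protein alpha subunit, rose slightly, to 990 ± 18.8 CPM in sgp53, against 807 ± 22.2 CPM in sgNTC (SD, n = 3 each; log2 fold change 0.29, edgeR adjusted p = 0.0252, and 0.0893 with the block). The tetraspanin gene Cd81 fell to 121 ± 12.3 CPM in sgp53, against 276 ± 29.6 CPM in sgNTC (SD, n = 3 each; log2 fold change -1.19, edgeR adjusted p = 0.00471), and its call was lost without line 1 (0.0641) or line 3 (0.0808). Cobl, an actin nucleator gene next to Grb10, fell to 8.95 ± 1.02 CPM in sgp53, against 15.8 ± 1.73 CPM in sgNTC (SD, n = 3 each; log2 fold change -0.82, edgeR adjusted p = 0.0286, and 0.0795 with the block). The Gnas call was also lost without any 1 library and the Cobl call without any but sgNTC line 2, and both without any whole line, over ranges of 1.36e-09 to 0.176 and 8.05e-05 to 0.205 for 15 alternatives each.

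The other imprinted genes of largest range over the libraries were Igf2, Dcn and Cdkn1c, and none was called. Igf2, the fetal growth factor that shares enhancers with H19, was at 10.6, 2.86 and 37.4 CPM in sgp53 lines 1, 2 and 3, against 3.46, 0.290 and 0.373 CPM in sgNTC. It was higher in sgp53 in every line, but sgp53 line 2 lay below sgNTC line 1, and the log2 fold change of 3.59 (SE 1.26) had an edgeR adjusted p of 0.124. Dcn, decorin, was at 8.35 CPM in sgp53 line 3 and between 0.0677 and 0.639 CPM in the other 5 libraries (log2 fold change 3.38, SE 1.32, edgeR adjusted p = 0.151). Cdkn1c, which encodes the cyclin-dependent kinase inhibitor p57, was at 59.4, 51.0 and 29.6 CPM in sgp53 lines 1, 2 and 3, against 144, 5.83 and 19.6 CPM in sgNTC, so that its difference ran down in line 1 and up in lines 2 and 3 (log2 fold change -0.28, edgeR adjusted p = 0.878).

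Within 500 kb of the Meg3 start, 5 genes could be tested, and all 5 log2 fold changes were positive. They were 2.71 for Dlk1, 3.51 for Meg3 and 3.44 for Rian, which are members, and 2.91 for Mirg. That of Begain, which lies farthest out, was 0.40 (edgeR adjusted p = 0.505). Within 500 kb of the Dlk1 start, 6 genes could be tested, 5 with a positive log2 fold change and 1 with a negative. In the Meg3 window the groups overlapped in Begain and in none of the other 4. Over all genes tested, 17.8% were higher in sgp53 without overlap. Of the 56 microRNA rows in this window, 54 had no count in any library. Within 500 kb of the H19 start, 9 genes could be tested and H19 and Cd81 were called, against 6.45% of all genes tested. Of these log2 fold changes, 6 were positive and 3 negative. The groups did not overlap in 3 genes that were higher and 3 that were lower in sgp53. Over all genes tested, 36.8% did not overlap in either direction. Mrpl23, a mitochondrial ribosomal protein gene whose midpoint lies 41.5 kb from the H19 start, was at 10.9 to 13.9 CPM in sgp53 and 11.8 to 12.3 CPM in sgNTC. Lsp1, a leukocyte actin-binding protein gene on the far side of Mrpl23, was at 4.06, 3.47 and 8.14 CPM in sgp53 lines 1, 2 and 3, against 1.17, 0.0725 and 0.305 CPM in sgNTC (log2 fold change 3.30, edgeR adjusted p = 0.0678), with no overlap between the groups. The sgNTC levels of Lsp1 rested on 39, 2 and 9 reads in lines 1, 2 and 3. These windows, and Lsp1 and Mrpl23 within them, were chosen after values had been seen.

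**Figure D5:**
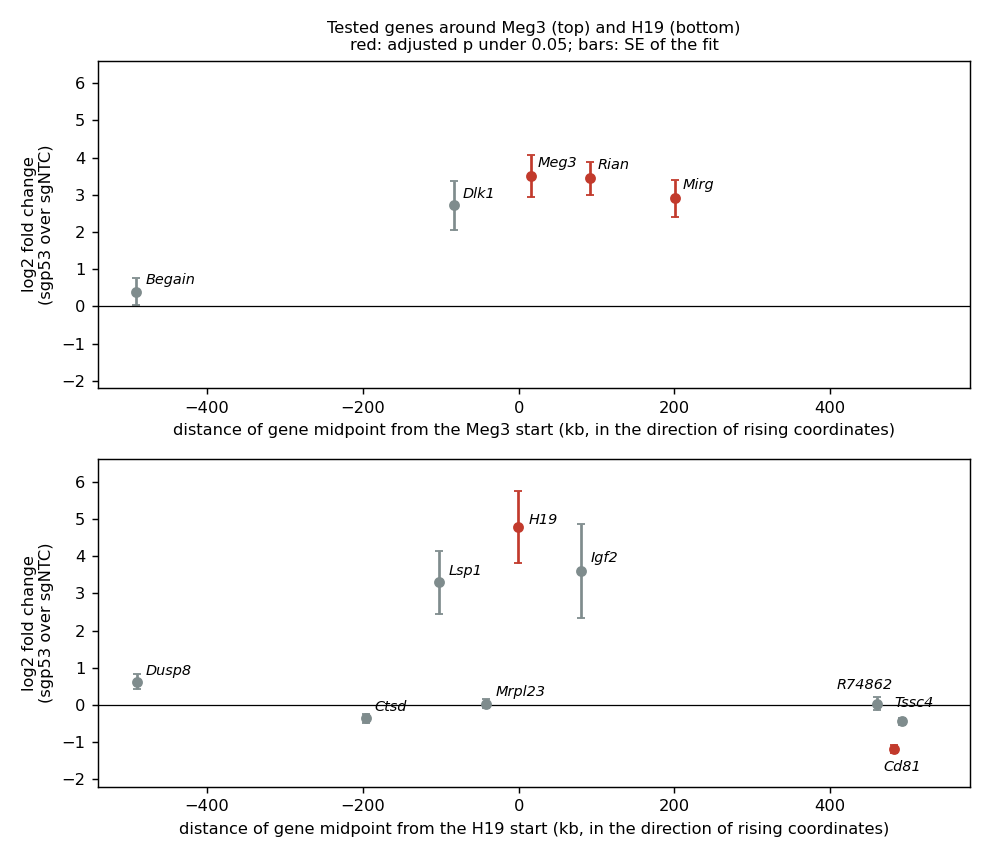
Log2 fold change of sgp53 over sgNTC, with bars for the SE of the fit, for every tested gene within 500 kb of the Meg3 start (top) and of the H19 start (bottom), against the distance of the gene's midpoint in kb; red marks an adjusted p under 0.05. On chromosome 12 the 4 genes from Dlk1 to Mirg lie between 2.71 and 3.51 and Begain at 0.40, while on chromosome 7 Mrpl23, between Lsp1 and H19, lies at 0.03.

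Of 9 tested genes that maintain imprints, 0 were called by edgeR, 1 had an unadjusted p under 0.05 and DESeq2 called 1 lower. The maintenance methyltransferase Dnmt1 was at 622 to 674 CPM in sgp53 and 685 to 780 CPM in sgNTC (edgeR adjusted p = 0.268), and its partner Uhrf1 was at 305 to 378 CPM in sgp53 and 426 to 540 CPM in sgNTC (0.0622). The imprint-protecting zinc finger gene Zfp57 was at 20.4 to 32.1 CPM in sgp53 and 31.6 to 35.4 CPM in sgNTC (0.365). Ctcf, whose protein insulates Igf2 from the H19 enhancers on the maternal copy, was at 164 to 171 CPM in sgp53 and 163 to 168 CPM in sgNTC (0.728). The 3 collagen genes and Krt18 given above changed beside the rise of H19, Meg3 and Rian in the same libraries, and the part of the cells they mark was not tested.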

How the data were processed

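RNA was sequenced from 6 libraries, 3 sgp53 and 3 sgNTC, made from total RNA with an Illumina TruSeq kit, named as stranded in part of the protocol, from RNA of integrity number above 8.0, per the labels' protocols. The authors deposited raw read counts per gene symbol, 1 column per library, with no normalization. Per the submitters' processing notes, mm10, STAR, CASAVA 1.8 and DESeq2 were used, in roles that are not stated. The sources used here do not give the counter, the annotation or whether strand was used.

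From these counts, sgp53 was compared with sgNTC in R 4.3.3 with the quasi-likelihood test of edgeR 4.0.16 (TMM, filterByExpr on the groups, 13044 genes tested, Benjamini-Hochberg adjustment over all of them, threshold 0.05). CPM use the TMM-normalized library totals. SE is the fitted coefficient over the square root of F. Lines were compared with the model of group plus line. Alternatives were RLE factors, other filters, DESeq2 1.42.0, limma-voom (limma 3.58.1), the line as a block, and leaving out libraries or lines. Scripts were tested on simulated data.

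Libraries of the same line number are paired by their titles, which name the line. Across genes, the correlation between the paired libraries' departures from their group means was 0.089, 0.0018 and -0.027 for lines 1, 2 and 3. No 2 libraries of a group agreed within sampling noise (chi-square per degree of freedom 23.0 to 61.8). With 3 against 3 an exact permutation test cannot go below 0.1. The p-values measure the spread between lines, which may not be independent, since lines 2 and 3 share a source number in their descriptions.

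The members and lists were chosen with earlier results of these data known. Named are the 9 members; the other imprinted genes that were called and the 3 of largest range with a mean of at least 1 CPM; the 2 genes most like each member; and Trp53 and Cdkn1a. Domain, marker and imprint maintenance genes named beyond this were chosen after their values were seen. Positions are those of RefSeq on GRCm38.p6, the same assembly as mm10; exon lengths are from GENCODE M21.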

Additional observations from a re-analysis of the deposited data

How the results depend on the processing

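The directions of H19, Meg3, Rian, Dlk1, Grb10, Mest, Plagl1 and Ndn were the same in all 15 alternatives each; that of Peg3 turned without sgNTC line 3 (log2 fold change -0.15) and without line 3 (-0.14), within a range of -0.15 to 0.49 over the omissions, and Peg3 was called in none. RLE factors, no filter and a filter at a mean of 1 CPM left the 3 member calls as they were. Limma-voom called 1 member. With the replicate block of lines, 2 members, 1 other imprinted gene and 311 of all genes were called, against 3, 4 and 841 without it; DESeq2 called 4, 10 and 2367, and 67 genes between lines. Leaving out a library or a line gave 0 to 3 member calls, 0 to 3 calls among the other imprinted genes, 19 to 725 calls over all genes, and 0 between lines. In these refits the tested genes were kept fixed, and a group or line left with 1 library is assumed to vary like the others. The filter at 1 CPM gave no value for Mirg. Fewer samples alone lower the number of calls. Depth limits the sgNTC levels of H19 in line 2 (26 reads), of Igf2 in lines 2 and 3 (8 and 11 reads) and of Mirg in every line (3 to 7 reads). It also limits those of Lsp1 in lines 2 and 3 (2 and 9 reads) and of Dcn in lines 1, 2 and 3 (14, 11 and 2 reads).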
